A study of Mus musculus with 6 samples.

Results

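Autophagy delivers cell contents to the lysosome, and the 37 genes described here encode its machinery, from the kinases that start an autophagosome to the receptors that load it. The genes were taken by name, and no measured value enters the rule, but the list was chosen with earlier results of these data known. All 37 symbols were found among the 55573 mouse genes of the count tables, and all 37 passed the filter on low counts, as did 16954 genes in all.

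RNA-Seq was carried out on osteoclasts from 3 control and 3 Rosa-Hes1 cultures of bone marrow-derived macrophages (BMMs). The BMMs came from 10-week-old mice, labelled male, and received M-CSF (30 ng/ml), which keeps the precursors alive, and RANKL (10 ng/ml), which makes them differentiate and fuse, over 4 days. Rosa-Hes1 cells were from *Ctsk* Cre/WT;Rosa *Hes1* mice, in which Cre inserted in the *Ctsk* locus removes a STOP cassette ahead of a *Hes1* coding sequence in the Rosa26 locus. *Hes1* encodes a transcriptional repressor that is a target of Notch. The controls are labelled wild type, and the study describes them as littermates with the intact STOP cassette and no Cre. Cre from the *Ctsk* locus is not exclusive to osteoclasts, and each library is a whole culture, so that fewer cells of a type and less RNA per cell cannot be told apart.

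An autophagosome starts when the ULK kinase complex activates a lipid kinase complex, which marks membrane with phosphatidylinositol 3-phosphate (PI3P). ATG9 vesicles and lipid transfer proteins then supply membrane, and ubiquitin-like enzymes couple proteins of the ATG8 family (LC3 and GABARAP) to it, where they bind receptors that carry cargo. In osteoclasts, ATG5, ATG7, ATG4B and LC3 are known to take part in forming the ruffled border, the membrane through which acid and proteases are secreted onto bone. Mutations in SQSTM1, a cargo receptor, are a known cause of Paget disease of bone, and the OPTN locus has been linked to its risk.

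Counts in genes ranged from 13038362 to 15956331 per library. *Hes1* was at 0.517, 0.557 and 0.296 CPM in control replicates 1 to 3 and at 4.95, 4.83 and 6.91 CPM in Rosa-Hes1 replicates 1 to 3, where CPM is the count relative to the library size after TMM scaling, times 1e+06 (log2 fold change 3.57, SE 0.30, edgeR adjusted p = 0.00477). Counts do not separate the inserted copy from the endogenous gene. The first principal component held 54.3% of the variance and placed Rosa-Hes1 replicate 2 (2.97) nearest to the controls (-27.4 to -12.5), with the other two Rosa-Hes1 libraries at 24.9 and 25.2. Of 14 osteoclast markers, 12 were higher in Rosa-Hes1, all but *Ctsk* and *Tnfrsf11a*, and their summed level was 12516 to 15881 CPM in control and 19933 to 23227 CPM in Rosa-Hes1. Of 12 macrophage markers, 1 was higher (*Cd68*) and 1 lower (*Cx3cr1*), and the sums overlapped (5807 to 7131 against 5855 to 6939 CPM). The sums also overlapped for 10 osteoblast and stroma markers (205 to 561 against 132 to 436 CPM), 7 B cell markers (7.17 to 10.4 against 8.87 to 10.6 CPM), 8 T and NK cell markers (5.10 to 9.04 against 4.16 to 8.65 CPM, with *Cd3e* and *Cd3g* at 0), 8 neutrophil markers (257 to 511 against 240 to 341 CPM) and 6 erythroid markers (0 to 0.369 against 0.145 to 0.326 CPM).

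Of the 37 autophagy genes, 5 were higher in Rosa-Hes1 than in control osteoclasts, none was lower and 32 did not pass the test. The 5 were *Map1lc3a*, *Map1lc3b* and *Gabarapl2*, which encode proteins of the ATG8 family, and *Nbr1* and *Optn*, which encode cargo receptors. Over all 16954 genes tested, 5.85% were called higher and 2.41% lower, at an adjusted p under 0.05 by edgeR's quasi-likelihood test with Benjamini-Hochberg adjustment. At an unadjusted p under 0.05, 11 of the 37 genes were higher and 0 lower, beside 14.3% higher and 11.4% lower over all genes. DESeq2 called 6 higher, with *Wipi2* as the added gene, and 0 lower, where it called 10.8% higher and 7.29% lower of the 12019 genes to which it gave an adjusted p. With limma-voom 5 were higher and 0 lower, beside 8.11% and 5.66% over all genes. The median log2 fold change was 0.11 over the 37 genes and -0.01 over all genes tested, and 33 of the 37 values were above 0. By role, the median log2 fold change was 0.04 in the ULK complex, 0.06 in the lipid kinase complex, 0.24 for ATG9, lipid transfer and PI3P effectors, 0.16 for conjugation, 0.05 for ATG4 proteases, 0.39 for the ATG8 family and 0.32 for cargo receptors, and differences between roles were not tested. The summed level of the 37 genes was 2716 to 2828 CPM in the controls and 2927 to 3233 CPM in Rosa-Hes1, so that the groups did not overlap. The summed osteoclast markers given above also did not overlap between the groups, and their part in these differences was not tested.

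**Figure D1:**
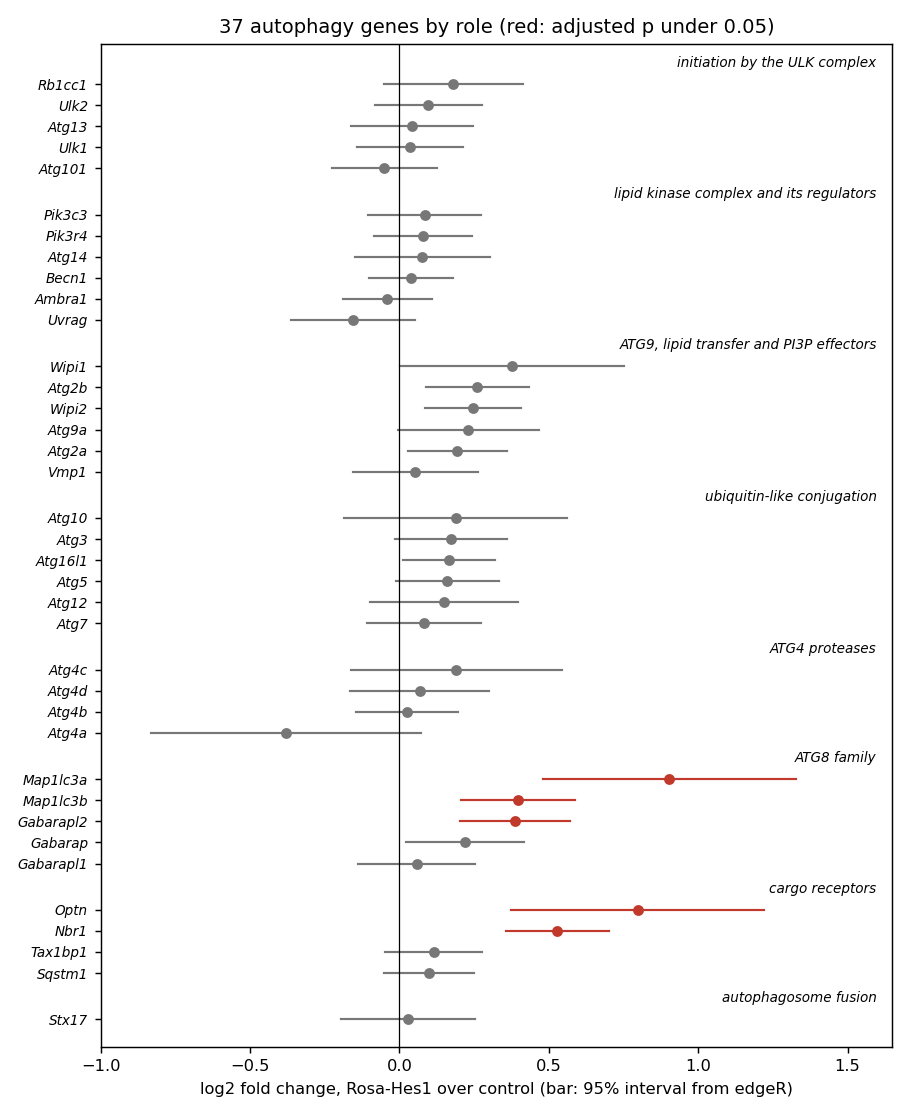
Log2 fold changes, Rosa-Hes1 over control, of the 37 autophagy genes grouped by role, with points for the edgeR estimates and bars for their 95% intervals. The 5 red genes, *Map1lc3a*, *Map1lc3b*, *Gabarapl2*, *Optn* and *Nbr1*, passed an adjusted p of 0.05, all above 0, and the 32 grey genes did not.

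The groups had no overlap, with every Rosa-Hes1 library above every control, in 11 of the 37 genes, and had the opposite order in 0. The corresponding shares over all genes tested were 16.6% and 14.5%. Beside the 5 called genes, the 11 held *Pik3r4* (log2 fold change 0.08), *Atg2a* (0.19), *Atg2b* (0.26), *Wipi2* (0.25), *Atg5* (0.16) and *Atg16l1* (0.17), none of which passed the test. The calls depended on the libraries, and so did the share called over all genes. When either replicate 1 was left out, that of control or that of Rosa-Hes1, only *Nbr1* of the 37 genes was called higher. The same held when Rosa-Hes1 replicate 3 was left out. Over all genes, 1.92%, 1.48% and 2.46% were called higher in these fits, in that order. Without control replicate 2 the calls were *Map1lc3a* and *Nbr1*, beside 3.90% higher over all genes. Without control replicate 3 they were *Optn* and *Nbr1*, beside 2.05%. Without Rosa-Hes1 replicate 2 there were 8, the 5 genes above with *Atg9a*, *Atg12* and *Gabarap*, beside 9.44%. The log2 fold changes of the 5 genes stayed above 0 in each of these fits.

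**Figure D2:**
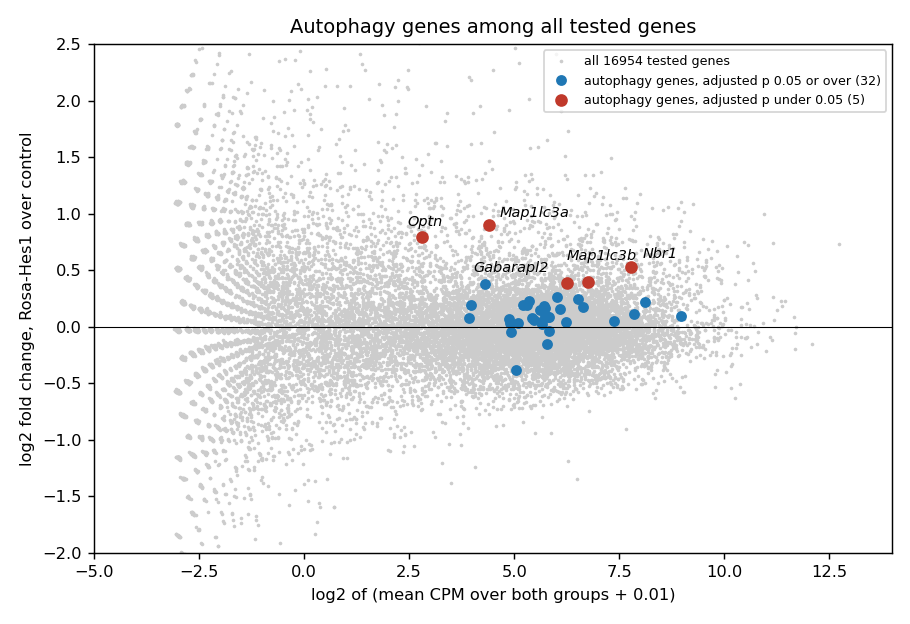
Log2 fold change, Rosa-Hes1 over control, against the log2 of mean CPM for all 16954 tested genes (grey) with the 32 autophagy genes that did not pass the test in blue and the 5 that did in red. The autophagy genes have a median control level of 49.8 CPM against 13.7 CPM over all genes, 33 of 37 sit above 0, and 98 other genes lie outside the axes.

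Of the 5 measured genes of the ATG8 family, 3 rose in Rosa-Hes1, beside 5.85% over all genes. The other 2, *Gabarap* and *Gabarapl1*, did not pass the test. The family had 441 to 498 CPM in sum in the controls and 526 to 618 CPM in Rosa-Hes1. LC3 proteins act in the growth of the autophagosome membrane and GABARAP proteins mainly in its later maturation, and both subfamilies had a gene that rose. *Map1lc3a* encodes LC3A, a protein of the first subfamily (ENSMUSG00000027602, GRCm38 chr2:155276297-155278073). It was at 12.3, 17.5 and 14.5 CPM in control replicates 1 to 3 and at 32.6, 21.1 and 29.2 CPM in Rosa-Hes1 replicates 1 to 3. The lowest Rosa-Hes1 library, replicate 2, was above the highest control, also replicate 2. The mean rose 1.87-fold, the largest rise among the 37 genes (log2 fold change 0.90, SE 0.18, edgeR adjusted p = 0.0254, 95% interval of the log2 fold change 0.48 to 1.33).

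*Map1lc3b* encodes LC3B, the form most used to follow autophagosomes (ENSMUSG00000031812, chr8:121590361-121598760). *Map1lc3b* was at 87.5, 98.3 and 93.3 CPM in control replicates 1 to 3 and at 128, 110.0 and 129 CPM in Rosa-Hes1 replicates 1 to 3. All Rosa-Hes1 libraries were above all controls, with Rosa-Hes1 replicate 2 again the lowest of its group. The rise was 1.32-fold (log2 fold change 0.40, SE 0.08, edgeR adjusted p = 0.0264, interval 0.21 to 0.59). *Gabarapl2* encodes GATE-16, of the GABARAP subfamily (ENSMUSG00000031950, chr8:111940703-111953612). *Gabarapl2* was at 62.6, 68.9 and 68.4 CPM in control replicates 1 to 3 and at 95.1, 81.2 and 84.8 CPM in Rosa-Hes1 replicates 1 to 3. The groups did not overlap, and the rise was 1.31-fold (log2 fold change 0.39, SE 0.08, edgeR adjusted p = 0.026, interval 0.20 to 0.57). Processed pseudogenes with long near-identical stretches, Gm3724, Gm5829 and Gm6051, held 41, 14 and 4 counts over the 6 libraries, at most 0.608% of those of *Gabarapl2*. These counts do not show how reads that match both the gene and a pseudogene were treated.

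*Gabarap* encodes the protein that names its subfamily and had the highest level of the family per kilobase of exon. *Gabarap* was at 236, 252 and 279 CPM in control replicates 1 to 3 and at 311, 270.0 and 312 CPM in Rosa-Hes1 replicates 1 to 3. Rosa-Hes1 replicate 2 lay below control replicate 3, and the gene did not reach the threshold (log2 fold change 0.22, SE 0.09, edgeR adjusted p = 0.155, interval 0.02 to 0.42). Without Rosa-Hes1 replicate 2 it did, with a log2 fold change of 0.29 and an edgeR adjusted p of 0.0473. *Gabarapl1*, also of the GABARAP subfamily, had a log2 fold change of 0.06 and overlapping groups (edgeR adjusted p = 0.737). With any 1 library left out, adjusted p-values from edgeR ran from 0.00397 to 0.0966 for *Map1lc3a*, from 0.00489 to 0.112 for *Map1lc3b* and from 0.0102 to 0.0984 for *Gabarapl2*. Each lowest value was without Rosa-Hes1 replicate 2 and each highest value was without a replicate 1, that of Rosa-Hes1 for *Map1lc3a* and *Map1lc3b* and that of control for *Gabarapl2*.

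Of the 4 cargo receptor genes, *Nbr1* and *Optn* rose, where 5.85% of all genes were called higher. *Sqstm1* and *Tax1bp1* did not pass the test. NBR1 is a receptor for ubiquitin-tagged cargo that binds ATG8 proteins and is related to p62. *Nbr1* (ENSMUSG00000017119, chr11:101552149-101581951) had the smallest adjusted p of the 37 genes. It was at 173, 189.8 and 179.9 CPM in control replicates 1 to 3 and at 275, 238 and 269.6 CPM in Rosa-Hes1 replicates 1 to 3. Control values were close together, and the lowest Rosa-Hes1 library, replicate 2, lay well above them. The rise was 1.44-fold, with 181 ± 8.35 against 261 ± 20.2 CPM (SD, n = 3) in control against Rosa-Hes1 (log2 fold change 0.53, SE 0.08, edgeR adjusted p = 0.00795, interval 0.36 to 0.70). It passed the test in every one of the 13 alternative fits, with adjusted p-values of up to 0.0449 when 1 library was left out.

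Optineurin, encoded by *Optn* (ENSMUSG00000026672, chr2:5020642-5064051), is a receptor for damaged mitochondria and for bacteria, and also regulates NF-κB signalling. *Optn* was at 4.50, 4.46 and 6.29 CPM in control replicates 1 to 3 and at 9.43, 7.44 and 9.60 CPM in Rosa-Hes1 replicates 1 to 3. Its level was the lowest of the 37 genes, also per kilobase of exon, and the groups did not overlap. The rise was 1.74-fold (log2 fold change 0.80, SE 0.19, edgeR adjusted p = 0.0358, interval 0.37 to 1.22). Adjusted p-values from edgeR ran from 0.017 to 0.143 with 1 library left out, the highest without Rosa-Hes1 replicate 1 and the lowest without Rosa-Hes1 replicate 2.

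*Sqstm1* encodes p62, the receptor best known for ubiquitin-tagged aggregates, and had the most counts of the 37 genes. *Sqstm1* was at 514, 459.7 and 470.0 CPM in control replicates 1 to 3 and at 528, 505 and 512 CPM in Rosa-Hes1 replicates 1 to 3. Control replicate 1 lay above Rosa-Hes1 replicates 2 and 3, and the difference did not reach the threshold (log2 fold change 0.10, SE 0.07, edgeR adjusted p = 0.41, interval -0.05 to 0.25). The interval of *Sqstm1* ended below the interval of *Nbr1*, its relative, although the difference between these genes was not itself tested. Exons of *Sqstm1* share 580 bases with Mrnip on the other strand, and how strand was used in counting was not given in the sources used here, so that reads there cannot be assigned with certainty. *Tax1bp1*, which encodes another cargo receptor, had a log2 fold change of 0.11 with overlapping groups (edgeR adjusted p = 0.36).

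**Figure D3:**
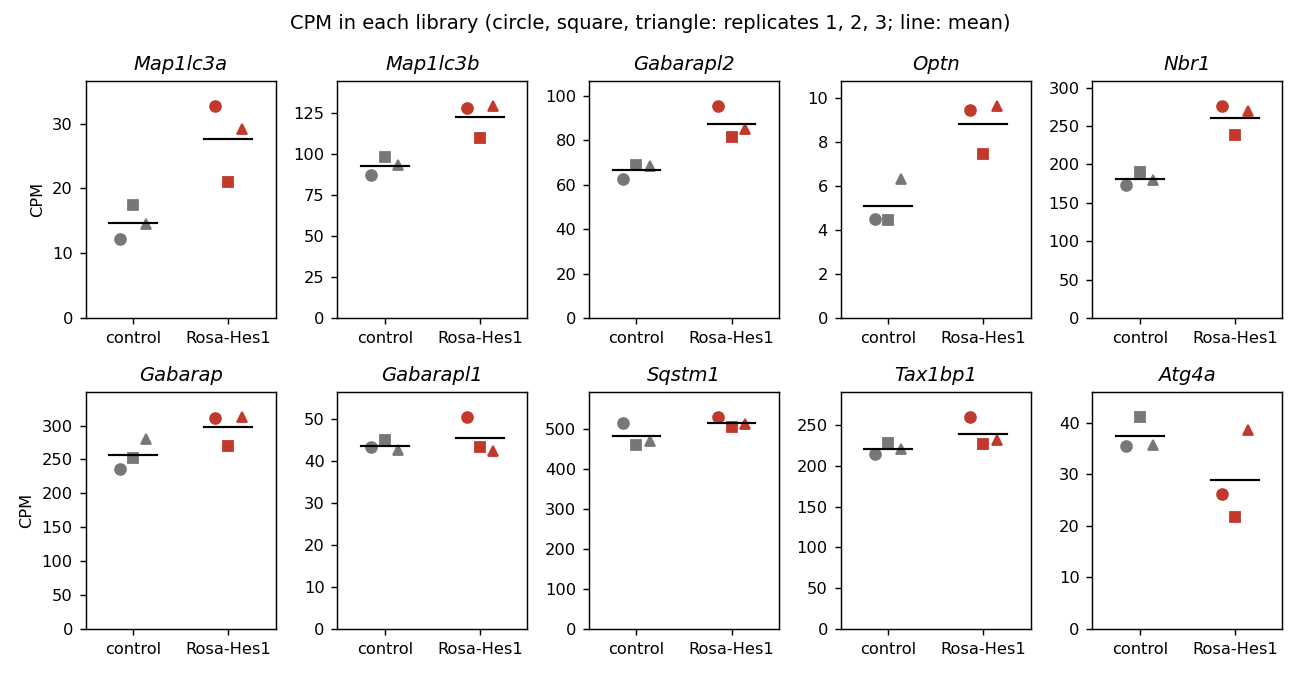
CPM in each of the 6 libraries, control in grey and Rosa-Hes1 in red, for the 5 genes that passed the test (top row) and 5 others (bottom row); circles, squares and triangles are replicates 1, 2 and 3 and lines are group means. In the top row every Rosa-Hes1 point is above every control, with replicate 2 the lowest Rosa-Hes1 point, and in the bottom row the groups overlap.

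Sequence upstream of the start of transcription was examined because HES1 binds DNA and because autophagy genes are known targets of the TFEB family. Windows of 250 bases before RefSeq starts (GRCm38.p6) were found for 31 of the 37 genes, in 37 windows, since some genes have several starts. Those of *Pik3c3*, *Rb1cc1*, *Atg12*, *Atg16l1*, *Map1lc3a* and *Becn1* were not used here. The motifs, searched on both strands, were CACGTG, the core site of TFEB, TFE3 and MITF, the CLEAR palindrome, a longer motif that contains it, CACNAG, the N box bound by HES1, and CACGCG, a further HES1 site. CACGTG was in 3 of the 37 windows (8.11%), against 6.02% of all 32851 windows and 8.02% of the 14221 windows of tested genes. The CLEAR palindrome was in 0 of 37, against 0.24% and 0.485%. CACNAG was in 11 (29.7%), against 36.7% and 35.6%, and CACGCG was in 3 (8.11%), against 7.62% and 13.2%. The 3 windows with CACGTG belonged to *Atg3*, *Atg5* and *Atg7*, which encode conjugation proteins and did not pass the test. In the 5 windows of 4 genes that rose (*Map1lc3b*, *Gabarapl2*, *Nbr1* and *Optn*), CACGTG was in 0, CACNAG in 3 and CACGCG in 1, that of *Map1lc3b*.

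The windows of *Optn* and *Gabarapl2*, which rose and held none of these letters, are shown with those of *Atg5* and *Atg7*, which held CACGTG. All 4 contained no annotated exon bases. They are written 5′ to 3′ on the strand of the gene, from the minus strand for *Optn* and from the plus strand for the other genes, and capitals mark CACGTG.
Optn, chr2:5064118-5064367: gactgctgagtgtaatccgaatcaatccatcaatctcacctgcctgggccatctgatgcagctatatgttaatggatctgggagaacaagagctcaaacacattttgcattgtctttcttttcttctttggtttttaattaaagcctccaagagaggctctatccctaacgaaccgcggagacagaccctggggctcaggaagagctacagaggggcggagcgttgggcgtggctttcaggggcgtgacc
Gabarapl2, chr8:111940453-111940702: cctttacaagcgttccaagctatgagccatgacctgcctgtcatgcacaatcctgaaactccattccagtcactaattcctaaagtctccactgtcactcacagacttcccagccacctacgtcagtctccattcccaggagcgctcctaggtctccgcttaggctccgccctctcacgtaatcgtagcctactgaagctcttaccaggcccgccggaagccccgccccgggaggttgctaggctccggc
Atg5, chr10:44268089-44268338: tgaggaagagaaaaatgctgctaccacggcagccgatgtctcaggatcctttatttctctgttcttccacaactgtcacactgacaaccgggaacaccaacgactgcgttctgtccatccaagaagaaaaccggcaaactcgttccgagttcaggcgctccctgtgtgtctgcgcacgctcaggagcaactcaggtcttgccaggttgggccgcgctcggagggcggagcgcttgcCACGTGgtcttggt
Atg7, chr6:114670846-114671095: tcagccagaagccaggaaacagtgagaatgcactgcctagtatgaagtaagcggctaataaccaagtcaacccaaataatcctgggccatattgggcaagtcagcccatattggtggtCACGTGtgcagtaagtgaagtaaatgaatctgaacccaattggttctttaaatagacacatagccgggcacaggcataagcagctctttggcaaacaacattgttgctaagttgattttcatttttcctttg
The *Atg7* window lies inside the gene as GENCODE draws it, ahead of a start that RefSeq places within it. A match is a string of letters and not a measured site, and no match says only that these letters were not in the window.

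The 5 genes of the ULK complex, which starts autophagosomes when nutrients are short, did not pass the test in either direction. Their log2 fold changes were -0.05 to 0.18, the smallest adjusted p by edgeR was 0.317, 0 had an unadjusted p under 0.05, and DESeq2 and limma-voom called 0. *Ulk1* encodes the kinase itself. *Ulk1* was at 32.4, 34.1 and 34.2 CPM in control replicates 1 to 3 and at 32.4, 34.8 and 36 CPM in Rosa-Hes1 replicates 1 to 3. The libraries of both groups were interleaved (log2 fold change 0.03, SE 0.08, edgeR adjusted p = 0.834), and the 95% interval of the log2 fold change was -0.14 to 0.21. *Ulk2*, which encodes the related kinase, had a log2 fold change of 0.10 and *Atg13*, which encodes the adaptor, one of 0.04. *Rb1cc1*, which encodes the scaffold FIP200, was at 50.2, 47.4 and 49.7 CPM in control replicates 1 to 3 and at 63.7, 48.3 and 54.8 CPM in Rosa-Hes1 replicates 1 to 3. Its Rosa-Hes1 replicate 2 lay within the controls, and its log2 fold change of 0.18 did not pass the test. *Atg101*, which encodes a partner that steadies ATG13, was at 29.6, 31.1 and 31.9 CPM in control replicates 1 to 3 and at 30.9, 29.2 and 29.4 CPM in Rosa-Hes1 replicates 1 to 3. These values overlapped throughout (log2 fold change -0.05, SE 0.08, edgeR adjusted p = 0.742).

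The lipid kinase complex that makes PI3P, with its regulators, likewise had no called gene among 6. Log2 fold changes were -0.16 to 0.08, the smallest adjusted p by edgeR was 0.334, 0 genes had an unadjusted p under 0.05, and DESeq2 and limma-voom called 0. *Becn1* encodes beclin 1, the subunit around which the complex is built. *Becn1* was at 73.7, 76.5 and 72.5 CPM in control replicates 1 to 3 and at 74.9, 76.3 and 77.7 CPM in Rosa-Hes1 replicates 1 to 3. These 6 values were within a few CPM of each other (log2 fold change 0.04, SE 0.06, edgeR adjusted p = 0.75), and the interval of the log2 fold change, -0.10 to 0.18, was the narrowest of the 37. *Becn1* shares 3104 exon bases with Cntd1 on the other strand, which held 28 counts in all. That count does not show how reads in the shared bases were treated. *Pik3c3*, which encodes the catalytic subunit VPS34, was at 50.8, 54.2 and 58.1 CPM in control replicates 1 to 3 and at 60.2, 52.9 and 59.8 CPM in Rosa-Hes1 replicates 1 to 3. *Atg14*, which directs the complex to autophagosomes, was at 14.9, 14.4 and 14.9 CPM in control replicates 1 to 3 and at 16, 14.2 and 16.4 CPM in Rosa-Hes1 replicates 1 to 3. Neither passed the test, both with a log2 fold change of 0.08. *Uvrag*, whose product serves the endosomal form of the complex, had the lowest value of the group (-0.16), and a repeat in its exons matches many other genes, so that its counts are less certain. *Ambra1*, which encodes a regulator of beclin 1, had -0.04.

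The genes for ATG9, lipid transfer and PI3P effectors were all above 0 and none of the 6 passed the test. Log2 fold changes were 0.05 to 0.38 and the smallest adjusted p by edgeR was 0.0677. At an unadjusted p under 0.05 there were 4, all higher, beside the 14.3% higher over all genes, and DESeq2 called 1 and limma-voom 0. The gene DESeq2 called was *Wipi2*, whose product reads PI3P and brings ATG16L1 to the membrane (log2 fold change 0.25, SE 0.07, edgeR adjusted p = 0.0677, DESeq2 adjusted p = 0.0495). *Wipi2* was at 83.3, 88.7 and 79.7 CPM in control replicates 1 to 3 and at 104, 100.1 and 94.7 CPM in Rosa-Hes1 replicates 1 to 3. Its groups did not overlap, and neither did those of *Atg2a* and *Atg2b*, which encode the lipid transfer proteins (edgeR adjusted p = 0.136 and 0.069). *Wipi1*, which encodes another PI3P reader, was at 13.1, 19 and 19.4 CPM in control replicates 1 to 3 and at 25.1, 19.1 and 22.8 CPM in Rosa-Hes1 replicates 1 to 3. Control replicate 1 lay apart below the other controls, which overlapped with Rosa-Hes1 (log2 fold change 0.38, SE 0.16, edgeR adjusted p = 0.193). *Vmp1*, which encodes a lipid scramblase of the endoplasmic reticulum, was at 156, 156 and 175 CPM in control replicates 1 to 3 and at 166, 151 and 188 CPM in Rosa-Hes1 replicates 1 to 3. The groups of *Vmp1* overlapped (log2 fold change 0.05, SE 0.09, edgeR adjusted p = 0.775). *Atg9a*, which encodes the membrane protein of the supplying vesicles, had a log2 fold change of 0.23 (edgeR adjusted p = 0.206) and passed the test without Rosa-Hes1 replicate 2 (log2 fold change 0.32, edgeR adjusted p = 0.0436).

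The 6 genes of the ubiquitin-like conjugation systems had log2 fold changes of 0.08 to 0.19, and none passed the test. The smallest adjusted p by edgeR was 0.168, 1 gene (*Atg16l1*) had an unadjusted p under 0.05, and DESeq2 and limma-voom called 0. *Atg5* encodes the protein that is joined to ATG12. *Atg5* was at 59.6, 63.8 and 69.1 CPM in control replicates 1 to 3 and at 71, 69.8 and 74.3 CPM in Rosa-Hes1 replicates 1 to 3. Every Rosa-Hes1 library was above every control, by less than 1 CPM at the nearest pair, and the difference did not reach the threshold (log2 fold change 0.16, SE 0.08, edgeR adjusted p = 0.228, interval -0.01 to 0.33). *Atg7* encodes the activating enzyme of both systems. *Atg7* was at 49.5, 54.9 and 60.1 CPM in control replicates 1 to 3 and at 60.0, 56.4 and 57.9 CPM in Rosa-Hes1 replicates 1 to 3. Its groups overlapped (log2 fold change 0.08, SE 0.08, edgeR adjusted p = 0.604, interval -0.11 to 0.27). *Atg3*, which encodes the enzyme that hands ATG8 proteins to lipid, was at 85.1, 104 and 92.9 CPM in control replicates 1 to 3 and at 109, 102 and 106 CPM in Rosa-Hes1 replicates 1 to 3. Control replicate 2 lay among the Rosa-Hes1 libraries, and the log2 fold change of *Atg3* was 0.17 (edgeR adjusted p = 0.235). *Atg16l1*, which encodes the partner that places the enzyme on membrane, was at 52.3, 49.3 and 48.4 CPM in control replicates 1 to 3 and at 56.3, 54.4 and 57.4 CPM in Rosa-Hes1 replicates 1 to 3. The groups of *Atg16l1* did not overlap (log2 fold change 0.17, SE 0.07, edgeR adjusted p = 0.168). *Atg12* passed the test without Rosa-Hes1 replicate 2 (log2 fold change 0.27, edgeR adjusted p = 0.0401) and not with all libraries (0.15, edgeR adjusted p = 0.447).

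The 4 ATG4 proteases trim ATG8 proteins before coupling and remove them afterwards, and their genes did not pass the test. The smallest adjusted p by edgeR was 0.274, 0 had an unadjusted p under 0.05, and DESeq2 and limma-voom called 0. *Atg4a* was at 35.6, 41.1 and 35.7 CPM in control replicates 1 to 3 and at 26.3, 21.7 and 38.7 CPM in Rosa-Hes1 replicates 1 to 3. Rosa-Hes1 replicate 3 lay among the controls and the other two Rosa-Hes1 libraries lay below them. The log2 fold change of -0.38 was the lowest of the 37 and its interval was wide (-0.83 to 0.07, edgeR adjusted p = 0.274). Without Rosa-Hes1 replicate 3 it passed the test as lower (log2 fold change -0.65, edgeR adjusted p = 0.0389). A near copy, Atg4a-ps, is 99.3% identical over 2115 bases and held 249 counts, 8.61% of those of *Atg4a*, so that reads may have been split between them. *Atg4d* was at 30.6, 28.2 and 26.6 CPM in control replicates 1 to 3 and at 26.3, 31.6 and 31.6 CPM in Rosa-Hes1 replicates 1 to 3. Its groups overlapped (log2 fold change 0.07, SE 0.10, edgeR adjusted p = 0.741), and 1405 of its exon bases are shared with Kri1 on the other strand. *Atg4b* and *Atg4c* had log2 fold changes of 0.03 and 0.19. *Stx17*, which encodes the SNARE that fuses autophagosomes with lysosomes, was at 28.8, 26.7 and 32.7 CPM in control replicates 1 to 3 and at 28.5, 29.4 and 32 CPM in Rosa-Hes1 replicates 1 to 3. Its groups overlapped (log2 fold change 0.03, SE 0.10, edgeR adjusted p = 0.899).

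Levels were compared between genes as mean CPM per kilobase of exon, over the union of the annotated exons of a gene, which understates genes with long rarely used exons. A cargo receptor gene and an ATG8 gene were at the top of this order. *Sqstm1* was at 143 ± 8.53 in control and 153 ± 3.66 in Rosa-Hes1 and *Gabarap* at 139 ± 12 in control and 161 ± 13 in Rosa-Hes1 (SD, n = 3 each), and these neighbours did not differ beyond their spread. *Vmp1* was next, at 42.1 ± 2.82 in control and 43.7 ± 4.82 in Rosa-Hes1. In control *Atg3* followed, at 29.8 ± 2.95, within its spread of *Gabarapl2*, at 28.7 ± 1.51. In Rosa-Hes1 the means of *Nbr1* (38 ± 2.95) and *Gabarapl2* (37.4 ± 3.10) were above that of *Atg3* (33.5 ± 1.18). At the other end, *Optn* was at 1.35 ± 0.278 in control and 2.35 ± 0.32 in Rosa-Hes1, *Rb1cc1* at 3.34 ± 0.1 in control and 3.79 ± 0.527 in Rosa-Hes1 and *Atg14* at 3.41 ± 0.0618 in control and 3.60 ± 0.269 in Rosa-Hes1, of which the last pair did not differ beyond their spread. Levels also ranged widely within a role. Among ATG8 genes they ran from *Map1lc3b*, at 12.4 ± 0.719 in control and 16.3 ± 1.45 in Rosa-Hes1, to *Gabarap*, and among receptors from *Optn* to *Sqstm1*. The range was narrower for the ULK complex, from *Rb1cc1* to *Atg101* (19.3 ± 0.745 in control and 18.7 ± 0.581 in Rosa-Hes1), and for the lipid kinase complex, from *Atg14* to *Pik3c3* (12.2 ± 0.815 in control and 12.9 ± 0.923 in Rosa-Hes1). In the conjugation systems the lowest gene was *Atg16l1* (5.19 ± 0.211 in control and 5.82 ± 0.158 in Rosa-Hes1), among the ATG9 and PI3P genes it was *Wipi1* (3.89 ± 0.794 in control and 5.06 ± 0.686 in Rosa-Hes1), and among the proteases it was *Atg4d* (3.92 ± 0.273 in control and 4.11 ± 0.425 in Rosa-Hes1). The highest protease gene was *Atg4a* in control (14.1 ± 1.19), whereas in Rosa-Hes1 *Atg4a* (10.8 ± 3.31) and *Atg4c* (11.8 ± 2.42) did not differ beyond their spread. Control *Map1lc3a* (12.5 CPM per kilobase) and *Map1lc3b* stood side by side, whereas in Rosa-Hes1 *Map1lc3a* was the higher (23.4 against 16.3 CPM per kilobase).

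**Figure D4:**
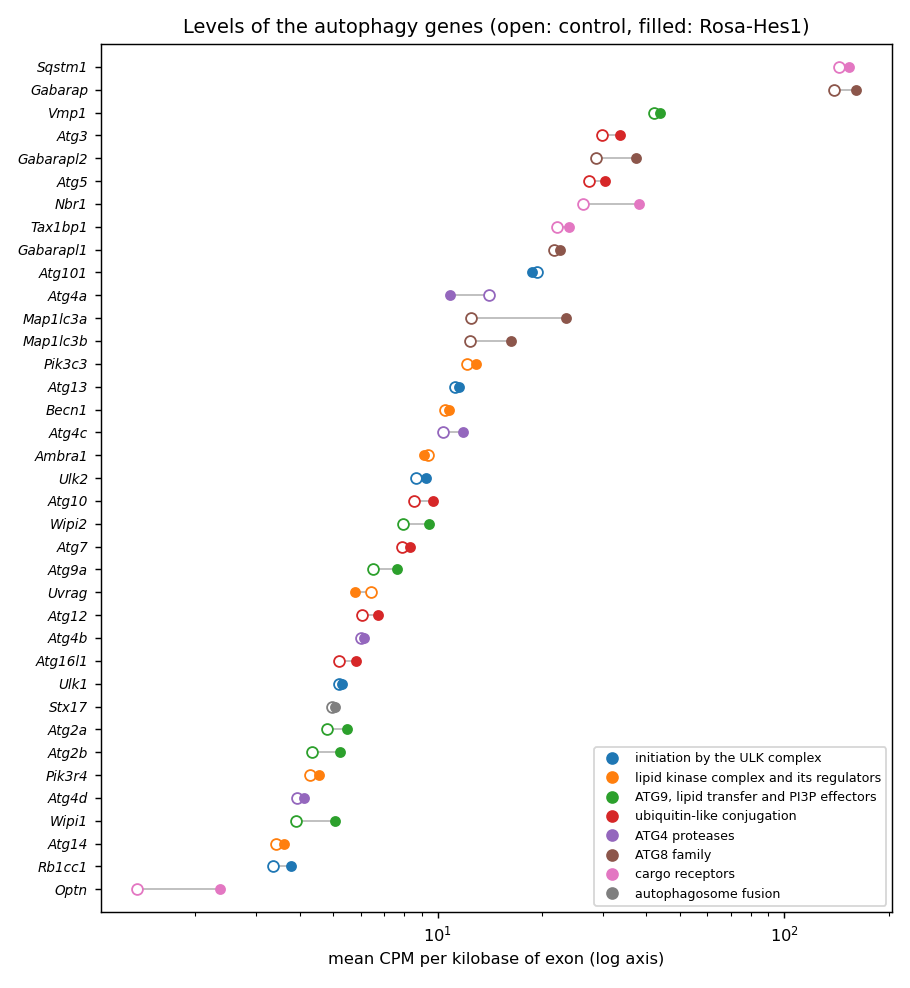
Mean CPM per kilobase of exon, on a log axis, for the 37 autophagy genes in control (open) and Rosa-Hes1 (filled) osteoclasts, ordered by the control level and coloured by role. *Sqstm1* and *Gabarap* are highest and *Optn* lowest, and the distance between open and filled points is widest on this axis for *Map1lc3a*, *Optn* and *Nbr1*.

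A further 96 genes around this machinery were counted from lists of organelle receptors, fusion factors, membrane supply, nutrient sensing and transcription factors. Of these, 17 were higher in Rosa-Hes1, 1 was lower and 78 did not pass the test, beside 5.85% higher and 2.41% lower over all genes. Their median log2 fold change was 0.10. DESeq2 called 21 higher and 2 lower, beside 10.8% and 7.29% of its genes with an adjusted p, and limma-voom 20 and 2, beside 8.11% and 5.66% of all genes. Without Rosa-Hes1 replicate 2 the numbers were 23 and 3, beside 9.44% and 6.63%. They were 4 and 0 without control replicate 1 or without Rosa-Hes1 replicate 1, 11 and 0 without control replicate 2, 6 and 0 without control replicate 3 and 8 and 0 without Rosa-Hes1 replicate 3, where 1.48% to 3.90% of all genes were higher and 0.127% to 1.04% lower. *Ncoa4*, *Tmem41b* and *Rragd* were called in all of these fits.

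Among 19 further receptor genes, 4 rose, beside 5.85% over all genes. *Ncoa4* encodes the receptor that carries ferritin to lysosomes and releases its iron (log2 fold change 0.65, SE 0.08, edgeR adjusted p = 0.00591). It was at 106, 122 and 106 CPM in control replicates 1 to 3 and at 186, 172 and 166 CPM in Rosa-Hes1 replicates 1 to 3. *Tex264* and *Retreg1* encode receptors for the endoplasmic reticulum, with log2 fold changes of 0.60 (edgeR adjusted p = 0.0113) and 0.78 (edgeR adjusted p = 0.031). *Tollip*, a receptor gene for ubiquitin-tagged aggregates, had 0.49 (edgeR adjusted p = 0.0154).

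Of 17 genes for tethering and fusion with lysosomes, 6 rose, beside 5.85% over all genes. *Vps39* and *Vps18* encode subunits of the HOPS tethering complex and had log2 fold changes of 0.73 (edgeR adjusted p = 0.0122) and 0.40 (edgeR adjusted p = 0.0125). *Plekhm1* encodes an adaptor that joins RAB7, HOPS and ATG8 proteins and is mutated in a form of osteopetrosis. *Plekhm1* was at 191, 229 and 223 CPM in control replicates 1 to 3 and at 293, 285 and 327 CPM in Rosa-Hes1 replicates 1 to 3. It rose with no overlap (log2 fold change 0.49, SE 0.09, edgeR adjusted p = 0.0152). *Rab7*, *Arl8b* and *Ykt6*, which encode small GTPases of late endosomes and lysosomes and a SNARE, had log2 fold changes of 0.26, 0.41 and 0.28 (edgeR adjusted p = 0.0474, 0.0229 and 0.0237). Other HOPS genes, *Vps11*, *Vps16*, *Vps33a* and *Vps41*, did not pass the test, with log2 fold changes of 0.16, -0.24, 0.08 and 0.08. *Lamp1*, the gene of an abundant lysosomal membrane protein, had -0.25 (edgeR adjusted p = 0.155).

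Of 14 genes for nucleation, PI3P and membrane supply, 2 rose, beside 5.85% over all genes. *Tmem41b* encodes a scramblase that works with VMP1 in the endoplasmic reticulum. *Tmem41b* was at 21.3, 22 and 24.3 CPM in control replicates 1 to 3 and at 43.9, 34.7 and 36.9 CPM in Rosa-Hes1 replicates 1 to 3. The groups did not overlap (log2 fold change 0.77, SE 0.11, edgeR adjusted p = 0.00758). *Trp53inp2*, which encodes a nuclear protein that binds LC3, had a log2 fold change of 0.60 (edgeR adjusted p = 0.0161).

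Of 34 genes for MTORC1, AMPK and nutrient sensing, 5 rose and 1 fell, beside 5.85% higher and 2.41% lower over all genes. *Rragd* encodes RagD, a GTPase that brings MTORC1 to lysosomes. It was at 8.12, 9.72 and 9.24 CPM in control replicates 1 to 3 and at 35.2, 19.8 and 28.8 CPM in Rosa-Hes1 replicates 1 to 3. The 3 Rosa-Hes1 libraries were all above the controls, with replicate 2 the lowest (log2 fold change 1.62, SE 0.20, edgeR adjusted p = 0.00644). *Flcn*, *Fnip1* and *Fnip2* encode folliculin and its partners, which act on RagC and RagD, and had log2 fold changes of 0.37, 0.43 and 0.32 (edgeR adjusted p = 0.0273, 0.0193 and 0.0231). *Rraga*, *Rragb* and *Rragc* did not pass the test (0.01, 0.22 and 0.23). The AMPK genes *Prkag2*, for a regulatory subunit, and *Prkaa1*, for a catalytic one, moved in opposite directions (0.89, edgeR adjusted p = 0.0301, and -0.27, edgeR adjusted p = 0.0332).

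None of the 12 transcription factor genes passed the edgeR test, 0 had an unadjusted p under 0.05, and DESeq2 and limma-voom called 0. The list held *Tfeb*, *Tfe3* and *Mitf*, whose products bind CACGTG in genes of autophagy and lysosomes, with log2 fold changes of 0.15, -0.12 and -0.02 and intervals of -0.09 to 0.40, -0.31 to 0.07 and -0.24 to 0.19. These are transcript levels, and the activity of these factors was not measured.

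**Figure D5:**
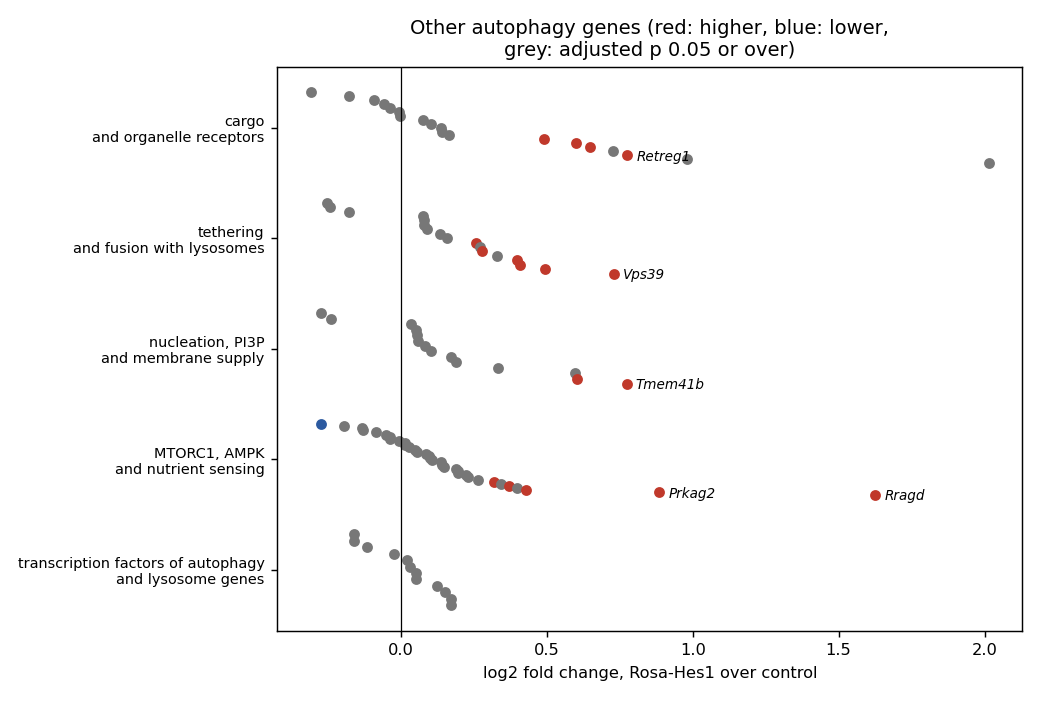
Log2 fold changes, Rosa-Hes1 over control, of 96 further autophagy genes in 5 lists, 1 point a gene, in red where higher and in blue where lower at an adjusted p under 0.05. *Rragd*, *Prkag2*, *Retreg1*, *Tmem41b* and *Vps39* are the red points furthest to the right, and the transcription factors are all grey and close to 0.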

How the data were processed

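RNA of 6 cultures was sequenced on an Illumina NextSeq in 1 pool after a stranded mRNA preparation. Per the study's methods and processing notes, the authors trimmed reads with Sickle, aligned with HISAT2 2.1.0, used SAMtools 1.9, removed duplicates with Picard and deposited HTSeq counts, which are whole numbers per gene with no normalization. Removing duplicates lowers counts of abundant genes. The methods name a human genome, but the processing notes name GRCm38 and the identifiers are mouse. Names were from GENCODE M21, and 0.167% of identifiers had none. Reads that HTSeq did not assign to a gene (17.4% to 18.1%) were left out. Among them were reads that could belong to several genes, at 5.51% to 6.07% of the reads in these files.

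Groups followed the genotype labels. Counts were fitted in edgeR 4.0.16 (R 4.3.3) with TMM scaling, robust quasi-likelihood dispersions and no covariate, for genes whose 6 counts summed to 10 or more, with Benjamini-Hochberg adjustment over all tested genes and a threshold of 0.05. SEs are the log2 fold change over the root of its F, and 95% intervals use the t quantile. The fit was tested on simulated data. Libraries are biological replicates per the labels, and 3 against 3 allow no exact permutation p under 0.10, so that none was used. Alternatives were other scalings and filters, DESeq2 1.42.0, limma-voom (limma 3.58.1), the replicate number as a block and leaving out each library. Members and lists were chosen with earlier results of these data known. By rule, per-library values were given for members past the threshold and for the highest and lowest gene per kilobase in each role. The rule also held *Ulk1*, *Becn1*, *Atg5*, *Atg7*, *Map1lc3b*, *Gabarap* and *Sqstm1*. Up to 6 called genes were named in each further list, only some of them with per-library values. Near copies were searched at 95% identity over at least 75 bases. Any other gene was chosen after its values were seen.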

Additional observations from a re-analysis of the deposited data

How the results depend on the processing

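The 5 called genes of the machinery stayed 5 with DESeq2 size factors, with upper quartile scaling, with no filter on low counts and with limma-voom, and became 6 with filterByExpr and with the DESeq2 test, where *Wipi2* was added. None was lower in these fits. Of the further 96 genes, 15 to 21 were higher, and DESeq2 and limma-voom each called 2 lower against 1. Same-numbered libraries deviated together in only 1 of 3 pairs (correlations -0.035, -0.137 and 0.377), so that the numbers were not taken as pairs. The deposited counts of Rosa-Hes1 replicate 3, as its label numbers it, carry the number 4, so that the third pair and the block rest on the label alone. With a replicate block, 2 genes of the machinery were higher (*Optn* and *Nbr1*) and 11 of the further genes were higher and 0 lower, and *Map1lc3a*, *Map1lc3b* and *Gabarapl2* had adjusted p-values of 0.0656, 0.0533 and 0.0550 in edgeR. Leaving out 1 library in turn gave 1 to 8 higher and 0 to 1 lower in the machinery, and 4 to 23 higher and 0 to 3 lower among the further genes. These fits have fewer libraries, and over all genes the share called ranged from 1.48% to 9.44% higher and from 0.127% to 6.63% lower, against 4.19% and 2.01% with the block and 4.99% to 8.40% and 2.51% to 3.39% with the other scalings and filters. Of 481 refits of single genes, 447 kept the direction and side of the threshold, 21 lost a call, 6 gained one and 7 changed sign, all 7 close to 0 and far from the threshold (smallest edgeR adjusted p = 0.839). With 1 library left out, log2 fold changes ranged from -0.0033 to 0.076 for *Ulk1*, from -0.042 to 0.12 for *Atg13* and from -0.038 to 0.13 for *Vmp1* (each below 0 without Rosa-Hes1 replicate 3). They ranged from -0.023 to 0.071 for *Atg4b* (below 0 without control replicate 2), from -0.024 to 0.0995 for *Gabarapl1* (without Rosa-Hes1 replicate 1) and from -0.037 to 0.11 for *Stx17* (without control replicate 2 or Rosa-Hes1 replicate 3). With a biological coefficient of variation of 0.124 and 3 libraries a group, SEs of the 37 log2 fold changes were 0.06 to 0.20. Differences of several SEs could still miss the threshold, as for *Atg2b* (0.26, SE 0.08) and *Wipi2* (0.25, SE 0.07). A gene that did not pass the test may therefore still differ.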

Other observations

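Genes of mitochondrial autophagy, chosen here after their values were seen, had large differences that did not pass the test. *Bnip3*, which encodes a mitochondrial receptor induced by low oxygen, was at 12.3, 16.4 and 19.4 CPM in control replicates 1 to 3 and at 98.1, 21.5 and 75.2 CPM in Rosa-Hes1 replicates 1 to 3. Its relative *Bnip3l* was at 55.9, 71.1 and 70.2 CPM in control replicates 1 to 3 and at 169, 79.2 and 141 CPM in Rosa-Hes1 replicates 1 to 3. *Pink1*, which encodes the kinase that marks damaged mitochondria, was at 11.7, 15.2 and 15.3 CPM in control replicates 1 to 3 and at 29.2, 16.6 and 24.3 CPM in Rosa-Hes1 replicates 1 to 3. In each of these genes the groups did not overlap, and Rosa-Hes1 replicate 2 lay close to the highest control. The log2 fold changes were 2.01 (SE 0.60), 0.98 (SE 0.28) and 0.73 (SE 0.21), with edgeR adjusted p-values of 0.115, 0.0889 and 0.0698. DESeq2 gave 0.012, 0.000359 and 0.00951. All of them passed the edgeR test without Rosa-Hes1 replicate 2, with adjusted p-values of 0.00199, 0.00199 and 0.00575. In that fit 9.44% of all genes were called higher. None passed with any other library left out, where edgeR adjusted p-values reached 0.262, 0.227 and 0.204. With the replicate block the edgeR adjusted p-values were 0.224, 0.183 and 0.115.

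Every Rosa-Hes1 library was above every control in 34 of the 96 further genes, against 16.6% over all genes. The opposite order, with every Rosa-Hes1 library below every control, was seen in 7 of the 96, against 14.5% over all genes. Of these 7, only *Prkaa1* passed the test. *Lamp1* was at 846, 795 and 1011 CPM in control replicates 1 to 3 and at 772, 677 and 774 CPM in Rosa-Hes1 replicates 1 to 3. Control replicate 3 was the highest of all. *Wdfy3*, which encodes the aggregate adaptor ALFY, was at 176, 176 and 167 CPM in control replicates 1 to 3 and at 135, 166 and 158 CPM in Rosa-Hes1 replicates 1 to 3. *Nufip1*, which encodes a receptor for ribosomes, was at 40.8, 44.8 and 44.4 CPM in control replicates 1 to 3 and at 33.7, 38.8 and 32.5 CPM in Rosa-Hes1 replicates 1 to 3. Of these, *Nufip1* had an edgeR adjusted p of 0.0735 and a DESeq2 adjusted p of 0.0432, and passed the edgeR test without Rosa-Hes1 replicate 2 (0.0153). *Nufip1* did not pass with any other library left out, where edgeR adjusted p-values reached 0.209.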
